A study of Mus musculus with 4 samples.

Results

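Unlabeled cells of the main olfactory epithelium (MOE) of 2 transgenic lines were compared gene by gene. They were GFP-negative in the TAAR enhancer 1-GFP line and tdTomato-negative in the TAAR enhancer 2-tdTomato line. Genes were taken as members when they reached a TPM (transcripts in every 1000000) of 10 in at least 1 of the 2 libraries, which gave 11838 of the 24421 genes in the deposited values (48.5%). The labels give the strain as C57BL/6, while the study describes transgenes injected into C57BL/6J eggs and its mouse lines as being on mixed C57BL/6J and 129 backgrounds. The study sorted MOE cells by FACS for a fluorescent reporter, made 1 RNA-seq library from each of 4 groups, and used the reporter-negative cells as the control of each line. Both lines carry a transgene in which an enhancer of the *Taar* cluster drives a reporter through the Hsp68 minimal promoter. The reporter is GFP behind TAAR enhancer 1 in one line and tdTomato behind TAAR enhancer 2 in the other, and 1 transgenic line was kept for each construct. The labels describe the mice as adult, while the reporting summary of the study gives postnatal ages before weaning, with a single age for the GFP line and a range for the tdTomato line. Males and females were used, and animals of 1 genotype and similar age were grouped and sorted together. With 1 library per group, line, transgene, age, animals, and sorting session cannot be told apart, and differences are given without p-values since the spread between replicates was not measured. Each library was scaled to the same total, and its read depth is unknown. Genes that every cell uses, such as *Rpl26* and *Ndufs5*, were listed at 0 in all 4 libraries, so a listed 0 can be a property of the file and not of the cells.

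The MOE is a renewing sensory tissue. Mature olfactory sensory neurons (OSNs) each express 1 odorant receptor gene at a high level, and they signal through a G protein, a cyclase, and cyclic nucleotide-gated channels. Basal stem cells replace the neurons, sustentacular cells surround them, microvillar cells lie between them, and Bowman's glands beneath them secrete mucus that holds odorant-binding lipocalins and proteins of the BPI-fold family. Blood leukocytes enter any dissociated tissue. The reporter-negative gate removes only labeled cells, so it can hold all of these types.

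The promoters of 4 secretory genes are shown because these genes were among the abundant genes that differed most between the libraries, 3 of them higher in GFP-negative cells and *Bpifa1* higher in tdTomato-negative cells. *Obp2a*, *Obp2b*, and *Lcn3* encode lipocalins that are secreted into nasal mucus, and they lie near each other on chromosome 2. *Bpifa1*, also on chromosome 2, encodes an abundant airway secretory protein of the BPI-fold family. Sequences are from RefSeq on build GRCm38.p6, 5′ to 3′ on the plus strand, and end at the base before the annotated start. For *Obp2a* the end is the base before the GENCODE M21 start, which lies 31 bases upstream of the RefSeq start. Capitals mark the TATA box letters TATAAA, which were searched on both strands. The motif was chosen after the sequences and the results of a search for another motif were seen.
*Obp2a*, chr2:25699824-25700042: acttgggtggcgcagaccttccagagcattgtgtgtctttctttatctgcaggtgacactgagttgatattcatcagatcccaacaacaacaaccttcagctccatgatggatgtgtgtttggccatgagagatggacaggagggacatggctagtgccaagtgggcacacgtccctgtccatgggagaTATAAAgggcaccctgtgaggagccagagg
*Obp2b*, chr2:25736757-25737006: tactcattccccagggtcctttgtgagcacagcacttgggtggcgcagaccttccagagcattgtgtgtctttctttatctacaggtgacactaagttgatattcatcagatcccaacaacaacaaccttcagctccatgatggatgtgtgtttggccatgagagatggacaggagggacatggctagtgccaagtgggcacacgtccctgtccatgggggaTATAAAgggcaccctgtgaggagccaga
*Lcn3*, chr2:25765283-25765532: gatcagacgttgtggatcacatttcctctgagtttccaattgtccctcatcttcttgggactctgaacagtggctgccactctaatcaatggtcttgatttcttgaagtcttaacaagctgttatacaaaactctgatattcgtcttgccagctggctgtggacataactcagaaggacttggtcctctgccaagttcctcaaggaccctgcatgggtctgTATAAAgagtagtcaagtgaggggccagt
*Bpifa1*, chr2:154142630-154142879: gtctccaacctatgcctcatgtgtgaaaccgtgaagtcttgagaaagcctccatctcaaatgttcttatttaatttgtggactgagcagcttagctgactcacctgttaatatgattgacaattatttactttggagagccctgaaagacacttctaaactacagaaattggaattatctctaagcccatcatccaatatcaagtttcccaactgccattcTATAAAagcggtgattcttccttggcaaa
Each of these 4 windows held TATAAA once, on the strand of the gene, with its first base 28 to 30 bases before the start. Over all promoters, 12.4% of the 32851 windows of 250 bases held the letters on either strand, and 2.31% held them on the gene's strand in the last 40 bases. In the list of nasal gland lipocalins, 4 of 8 promoters held them in the last 40 bases. In the mature OSN list it was 1 of 18. The window of *Lcn4*, another lipocalin gene of chromosome 2, held no match. The *Obp2a* and *Obp2b* windows aligned over 217 bases, of which 214 were identical. The transcripts of this pair shared 11.7% and 11.9% of their 50-base windows, so some of their reads could not be told apart, and *Lcn3* and *Bpifa1* shared no window with another gene.

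The reporter-negative libraries held largely the same genes. Of the members, 9988 (84.4%) reached 10 TPM in both libraries, 878 did so only in GFP-negative cells, and 972 only in tdTomato-negative cells. Members held 98.6% of all TPM in each library. At the limit, *Dyx1c1* was just inside with 10.01 TPM in GFP-negative and 5.95 in tdTomato-negative cells, and *Igsf9b* was just outside with 4.02 and 9.999. The difference in log2(TPM + 1), GFP-negative minus tdTomato-negative, had a median of -0.06, and the middle 50% of members lay between -0.40 and 0.29. On this scale 10026 members (84.7%) differed by less than 2-fold, and 8247 (69.7%) by less than 1.5-fold. Genes past 2-fold numbered 1812, or 15.3% of members, with 875 higher in GFP-negative cells (7.39%) and 937 higher in tdTomato-negative cells (7.92%). Which direction held more genes depended on the scaling and the limit, as scaling by the median ratio gave 952 and 844. Past 4-fold were 674 members, or 5.69%, with 370 higher in GFP-negative and 304 in tdTomato-negative cells. The genes past 2-fold held 7.27% of the TPM of GFP-negative cells and a similar 7.5% of that of tdTomato-negative cells.

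Across the members, the log2(TPM + 1) levels of both libraries had a Pearson r of 0.781 and a Spearman rho of 0.865 (n = 11838 genes, which are not independent replicates). Among the 9988 genes at 10 TPM or more in both libraries, r was 0.919, and 625 (6.26%) were past 2-fold. Each reporter-negative library was closer to the other than to the reporter-positive library of its own line. Over the same 11838 genes, r was 0.656 between GFP-negative and GFP-positive cells and 0.684 between tdTomato-negative and tdTomato-positive cells. It was 0.843 between the reporter-positive libraries. The share of members within 2-fold was 43.6% within the GFP line and 69.6% within the tdTomato line. The scatter of both libraries shows genes of glands and leukocytes, *OR* genes, and other genes far from the diagonal.

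**Figure D1:**
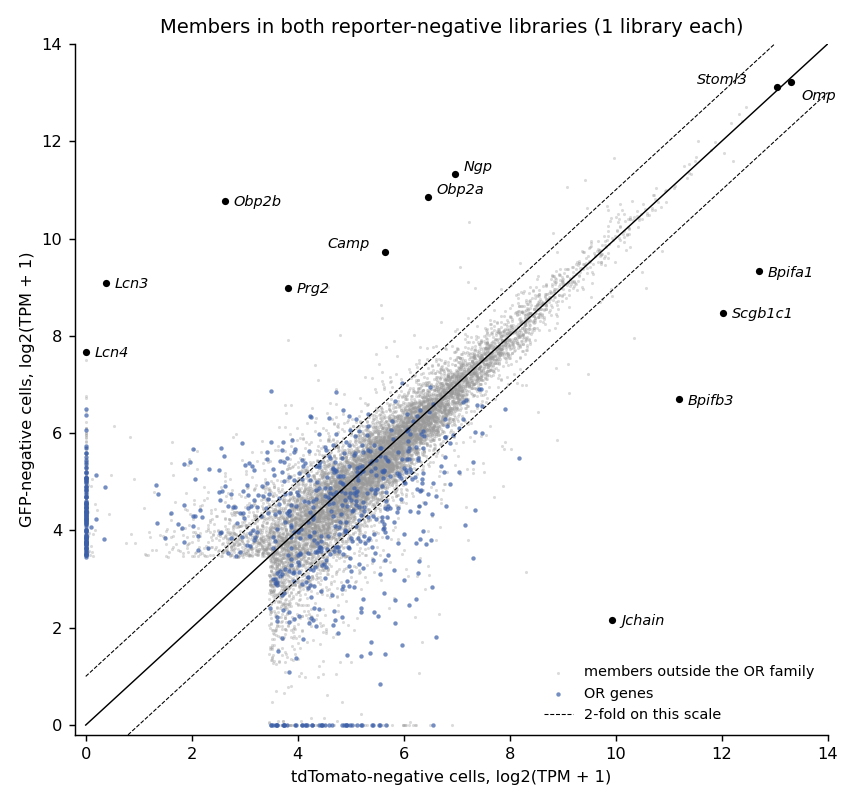
Level of each of the 11838 members in tdTomato-negative cells (x axis) and GFP-negative cells (y axis), both as log2(TPM + 1), with *OR* genes in blue, the diagonal, and dashed lines at 2-fold. *Omp* and *Stoml3* lie on the diagonal at the top right, the lipocalin and granule genes *Lcn3*, *Obp2b*, *Ngp*, and *Camp* lie far above it, and *Jchain*, *Bpifb3*, *Scgb1c1*, and *Bpifa1* lie far below it.

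OSN genes led both libraries. The gene with the highest mean TPM was *Omp*, the olfactory marker protein of mature OSNs, with 9584 TPM in GFP-negative cells and 10108 in tdTomato-negative cells. *Stoml3*, a stomatin-like membrane protein of OSN cilia, had 8815 and 8419, and *S100a5*, a calcium-binding protein of OSNs, had 6636 and 5667. All 3 differed by less than 0.25 on the log2 scale between the libraries. Of the 20 genes with the highest mean, 18 lay within 2-fold, among them *Gfy* (3081 and 4722 TPM), *Stom* (3485 and 4203), *Chga* (2623 and 2685), and *Tuba1a* (5349 and 4613). The exceptions were the secretory genes *Bpifa1* and *Scgb1c1*, described below.

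The tissue of origin was checked on marker genes. The counts of each gene list stand against the 15.3% of all members past 2-fold, 7.39% higher in GFP-negative and 7.92% higher in tdTomato-negative cells, and a share of a short list near these is no result about the list. In bulk samples, fewer cells of a type and less RNA per cell cannot be told apart. Some genes stand in several lists, so the lists are not independent. *Ascl3* is in the Bowman's gland and microvillar lists, and *Cyp2f2* is in the respiratory secretory and sustentacular lists. *Krt18* is in the sustentacular and microvillar lists. None of the 22 genes of the mature OSN list passed 2-fold, and their median difference was -0.09. All lay above 100 TPM in both libraries. Outside the receptor families, the share past 2-fold was 3.55% at a mean of 100 to 200 TPM, 5.48% at 500 to 1000 TPM, and 11.5% at 1000 TPM or more. The count is thus near the share for genes of such levels. The transduction genes were at closely similar levels. *Gnal*, the olfactory G protein alpha subunit, had 1719 TPM in GFP-negative and 1973 in tdTomato-negative cells, *Adcy3*, the cyclase, had 872.5 and 1177, and the channel subunits *Cnga2* and *Cnga4* had 1091 and 1216, and 673.5 and 704.6. The chloride channel *Ano2* had 374.5 and 483.5 TPM. The channel subunit *Cngb1* had the largest difference of the list, with 204.6 and 302.6 TPM and a log2 difference of -0.56. The receptor trafficking genes *Rtp1* (802 and 778 TPM) and *Rtp2* (621.3 and 762.3), the exchange factor *Ric8b* (622 and 701.3), and the gamma subunit *Gng13* (2885 and 2499) were likewise within 2-fold. Other mature OSN genes included the phosphodiesterase *Pde1c*, the lowest of the list at 103.5 and 145 TPM, and the beta subunit *Gnb1*, at 2104 and 2199 TPM. The others were *Ckb*, *Umodl1*, *Calb2*, *Cartpt*, *Slc17a6*, *Ebf1*, *Lhx2*, and *Ldb1*, whose log2 differences ran from -0.25 (*Umodl1*) to 0.30 (*Cartpt*).

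Most other neuronal lists had few genes past 2-fold, and the list of non-canonical sensory neurons, given below, was an exception. None of the 14 members of the receptor enhancer and unfolded protein response list passed 2-fold (median -0.03), among them *Lhx2*, *Ldb1*, *Ebf2*, and *Ebf3*, factors of *OR* gene choice, and *Atf5*, a factor that stabilizes it. None of the 6 genes of the odor activity list passed (median 0.14), and none of the 16 immature OSN genes (median 0.16). Most genes of these lists lay above 50 TPM. Outside the receptor families, 4.01% of genes at a mean of 50 to 100 TPM were past 2-fold, and counts of 0 here are near that share. The growth-associated gene *Gap43* had 471.2 TPM in GFP-negative and 302.2 in tdTomato-negative cells, and *Stmn1* 1365 and 967.5. Of the 11 members for zones and axon sorting, only the ephrin *Efna5* passed, with 27.4 and 66.1 TPM. The dorsal zone gene *Nqo1* had 1308 and 949.4 TPM, and *Acsm4* had 343.5 and 311.1. None of the 7 precursor genes passed (median 0.47), a list too short to set apart from the 15.3% of all members, including *Neurod1* (58.1 and 44.5 TPM) and *Nhlh1* (113.7 and 70.98). In the cell cycle list, 4 of 13 members were higher in GFP-negative cells and none in tdTomato-negative cells (median 0.37), against 7.39% and 7.92% of all members. These were *Ccnb2* (33.98 and 5.15 TPM), *Cenpa* (41.9 and 8.4), *Mcm5* (38.4 and 13.8), and *Ube2c* (52.4 and 21.2), while *Mki67* had 30.5 and 23.4 and *Top2a* 37.0 and 37.7.

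The size of the difference depended on the level. Outside the receptor families, the middle 50% of genes spanned 0.93 on the log2 scale at a mean of 10 to 20 TPM, 0.51 at 50 to 100 TPM, and 0.31 at 1000 TPM or more. The share past 2-fold fell from 21.1% to 4.01% between the first pair of these bins and was 11.5% in the last, where 11 of 96 genes were past it. Members with a mean below 10 TPM necessarily had a lower value in the other library, and 55.8% of them were past 2-fold. *OR* genes were spread more widely at each level, with a middle 50% that spanned 1.38 at 50 to 100 TPM.

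**Figure D2:**
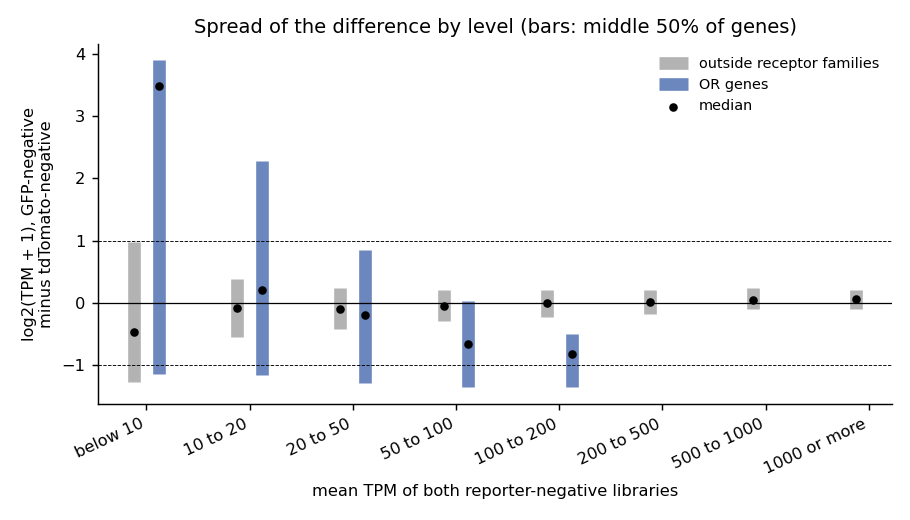
Spread of the difference in log2(TPM + 1), GFP-negative minus tdTomato-negative (y axis), for members grouped by the mean TPM of both libraries (x axis), with bars for the middle 50% of genes, points for the median, and dashed lines at 2-fold. Outside the receptor families the bars narrow from a span of 0.93 at 10 to 20 TPM to 0.31 at 1000 TPM or more, while the *OR* bars are wider in each bin where both are shown.

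Among members outside the receptor families with at least 50 TPM in either library and above 0 in both, the 15 largest differences in each direction were at least 3.15 higher in GFP-negative cells and at least 3.21 higher in tdTomato-negative cells. They included the gland and leukocyte genes described next. Others higher in GFP-negative cells were *Snhg20*, a host gene of small nucleolar RNAs (69.4 and 0.456 TPM), *1110001J03Rik* (59.7 and 0.776), and *Apod*, which encodes the lipocalin apolipoprotein D (60.0 and 5.87). Others higher in tdTomato-negative cells were *Gm5483* (7.80 and 318 TPM), *Elf3*, an epithelial transcription factor (4.30 and 51.7), and *Rnaset2b* (2.25 and 80.1), of whose 50-base windows 81.8% occur in another gene.

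Of the genes with these largest differences, the lipocalin genes *Lcn3* and *Obp2b* were the farthest apart, at 8.71 and 8.16. *Lcn3* had 542.7 TPM in GFP-negative cells and 0.30 in tdTomato-negative cells, *Obp2b* had 1757 and 5.14, and *Obp2a* had 1842 and 86.6. *Lcn4* had 202.8 TPM in GFP-negative cells and was listed at 0 in tdTomato-negative cells. *Mup5*, a major urinary protein gene, had 62.3 and 6.12. The remaining lipocalin members had higher values in tdTomato-negative cells. *Obp1a* had 503.3 TPM in GFP-negative cells and 1518 in tdTomato-negative cells, *Lcn11* had 126 and 299.5, and *Mup4* had 144.6 and 222.5. So 5 of the 8 lipocalin members were at least 2-fold higher in GFP-negative cells and 2 in tdTomato-negative cells, with a median of 3.77. When a gene had to reach 10 TPM in both libraries, 4 members were left and the median was -0.93. In the reporter-positive cells of the GFP line the 8 genes were more abundant, at 2771 TPM (*Lcn4*) to 41227 TPM (*Obp2a*), and in those of the tdTomato line they were at 0 to 30.1 TPM.

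The BPI-fold genes of chromosome 2 took both directions within 1 cluster. Of 14 genes with this name 8 were members, 4 of them at least 2-fold higher in GFP-negative cells and 3 in tdTomato-negative cells. *Bpifb3* (2:153918230-153932996) had 102.6 TPM in GFP-negative cells and 2337 in tdTomato-negative cells. The next genes on either side of it, *Bpifb6* and *Bpifb4*, were higher in GFP-negative cells, with 136.1 and 19.998 TPM and with 213.1 and 85.4 TPM. *Bpifa1* had 640.7 and 6643 TPM and *Bpifb1* had 6.70 and 27.1. *Bpifb9a* had 395.3 and 46.4 TPM and *Bpifb9b* had 1304 and 149.6, but 71.4% of their 50-base windows were shared with each other, so their reads cannot be told apart well. *Bpifb5* had 10.4 and 9.78. In the reporter-positive cells, *Bpifa1* was high in both lines (43136 and 53377 TPM), and *Bpifb3* was high in the GFP line only (4867 and 20.6).

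**Figure D3:**
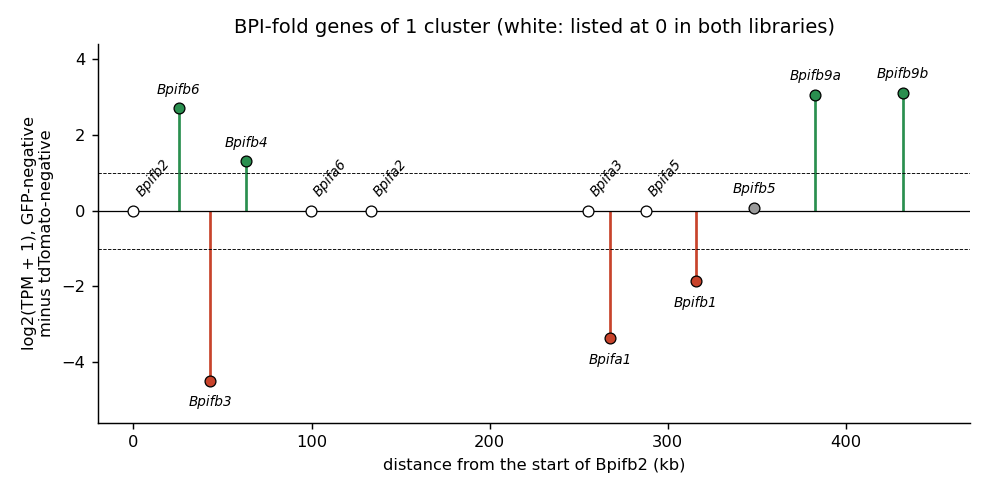
Difference in log2(TPM + 1), GFP-negative minus tdTomato-negative (y axis), of the BPI-fold genes of the cluster on chromosome 2 by the distance of their start from that of *Bpifb2* in kb (x axis), with dashed lines at 2-fold and white points for genes listed at 0 in both libraries. *Bpifb3* lies at -4.50 between *Bpifb6* at 2.71 and *Bpifb4* at 1.31, and *Bpifb9a* and *Bpifb9b* lie at 3.06 and 3.12.

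Respiratory secretory genes had 1 direction. All 8 members of that list were at least 2-fold higher in tdTomato-negative cells (median -2.24), and their list summed to 1322 TPM in GFP-negative and 8436 in tdTomato-negative cells. Apart from *Bpifa1*, these included *Reg3g*, an antimicrobial lectin (453.7 and 978.8 TPM), *Wfdc2* (50.3 and 258.2), *Cyp2f2*, a cytochrome P450 (161.6 and 466.5), and the mucins *Muc5ac* (6.70 and 32.9) and *Muc5b* (1.96 and 14.2). *Scgb3a1* was listed at 0 in GFP-negative cells and had 14.7 TPM in tdTomato-negative cells. *Scgb3a1*, *Bpifb1*, *Muc5ac*, and *Muc5b* were members only through their level in tdTomato-negative cells, which adds to the count of this list. With 10 TPM required in both libraries, 4 members were left, with a median of -1.93. *Scgb1c1*, a secretoglobin of nasal glands, had 354 and 4145 TPM, and *Pigr*, which carries polymeric immunoglobulin across epithelia, had 5.96 and 83.1. Bowman's gland markers were split, with 3 of 8 members higher in each direction, and their median of -0.46 turned to 1.03 at a minimum of 50 TPM. *Dmbt1* had 15.3 TPM in GFP-negative cells and was listed at 0 in tdTomato-negative cells, and *Gpx6* had 103.9 and 209. In the reporter-positive cells, the respiratory secretory list summed to 70208 TPM (GFP) and 65343 TPM (tdTomato), while the lipocalin list summed to 140529 and 60.4 TPM. The part of secretory cells in the differences between the reporter-negative libraries was not tested.

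The lists of other epithelial cell types differed from each other. In the microvillar and tuft cell list, 8 of 10 members were at least 2-fold higher in tdTomato-negative cells and none in GFP-negative cells (median -1.81). The ionocyte-type genes *Coch* (112.4 TPM in GFP-negative and 555.7 in tdTomato-negative cells), *Ascl3* (21.2 and 144.5), *Foxi1* (6.84 and 33.2), and the chloride channel *Cftr* (1.01 and 15.4) were among them. So were *Trpm5*, the cation channel of tuft-type microvillar cells (5.94 and 35.5), and the cytokine gene *Il25* (10.1 and 29.8). *Trpm5*, *Foxi1*, *Cftr*, and *Avil* were members only through their level in tdTomato-negative cells, which adds to the count. With 10 TPM required in both libraries, 6 members were left, with a median of -1.48. In the sustentacular list, 4 of 13 members were higher in tdTomato-negative cells (median -0.90), against 7.92% of all members, and the list summed to 1865 and 3456 TPM. *Cyp2g1*, a cytochrome P450 of these cells, was within 2-fold at 199.6 and 248.2 TPM, and the carbonyl reductase *Cbr2* was at 434.7 and 855.3. Of 6 horizontal basal cell members, *Krt5* (15.7 and 56.5 TPM) and *Krt15* (8.81 and 19.5) passed 2-fold. Of 9 multiciliated cell markers 7 were within 2-fold, a share no higher than the 84.7% of all members, among them *Foxj1*, the master factor of motile cilia, at 126.3 and 114.3 TPM. The exceptions were *Ccdc153*, listed at 0 and at 13.6 TPM, and *Tmem212*, at 0.0988 and 21.6. *Scgb1a1*, a club cell secretoglobin, was listed at 0 in both libraries.

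Leukocyte genes were higher in GFP-negative cells in several lists. In the macrophage list, 8 of 11 members were at least 2-fold higher in GFP-negative cells (median 1.89), including the complement genes *C1qa* (170.3 and 45.1 TPM), *C1qb* (216.9 and 49.6), and *C1qc* (197.4 and 43.4). *Cx3cr1*, a chemokine receptor, had 43.1 and 2.88. *Tyrobp* (432.8 and 409.1) and *Fcer1g* (284.4 and 298.6), signaling adaptors of many myeloid cells, were level. In the neutrophil list, 9 of 12 members were higher in GFP-negative cells and 1 in tdTomato-negative cells (median 1.93), and the list summed to 10813 and 2845 TPM. *S100a9* had 3215 and 996.6 TPM, *S100a8* had 2347 and 687.1, *Ngp* had 2552 and 123.6, and *Camp* had 846.4 and 49.1.

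The neutrophil genes did not all go the same way. Among genes for granule proteins that neutrophils make early in their development, *Mpo* was at 40.7 and 2.04 TPM and *Prtn3* at 50.4 and 3.105. *Elane* had 33.7 TPM in GFP-negative cells and was listed at 0 in tdTomato-negative cells. *Mmp9* was level, at 60.3 and 62.0 TPM. *Cxcr2*, a chemokine receptor of mature neutrophils, was higher in tdTomato-negative cells, at 26.4 and 70.3 TPM. The leading genes of tdTomato-negative cells included the stefin genes *Stfa2* (3.68 and 73.1 TPM) and *Stfa2l1* (3.85 and 100.5), the lectin gene *Clec4d* (7.47 and 88.1), the interleukin-1 receptor antagonist *Il1rn* (12.9 and 147.5), and *Il1f9* (5.07 and 55.3). The stefin pair shared 15.9% and 24.6% of its windows with other genes. Leading genes of GFP-negative cells included *Prg2*, the major basic protein of eosinophils (507.3 and 13.1 TPM), *Chil3* (512 and 22.9), and *Ifitm6* (257.3 and 26.95). *Fcnb*, a ficolin gene, had 86.7 TPM in GFP-negative cells and was listed at 0 in tdTomato-negative cells.

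Lymphocyte genes were split as well. Of 7 B cell members, 5 were higher in GFP-negative cells, including the antigen receptor subunits *Cd79a* (191.9 and 57.8 TPM) and *Cd79b* (256.5 and 72.4) and the surrogate light chain gene *Vpreb1* (28.1 and 8.11). *Jchain*, which joins secreted immunoglobulins and is made by plasma cells, went the other way, with 3.47 and 981.3 TPM, the largest difference among the leading genes of tdTomato-negative cells. Of 8 T and NK cell members 6 were within 2-fold, a share near the 84.7% of all members, such as *Cd3g* (66.8 and 103.6) and *Nkg7* (66.5 and 57.1), while *Gzma* had 167.1 and 18.9 TPM and *Cd8a* had 5.44 and 14.7. The granzyme gene *Gzmb* had 55.2 and 2.08. The 3 erythroid members were higher in GFP-negative cells, among them *Alas2* (63.7 and 26.3) and *Slc4a1* (21.8 and 3.43), and the hemoglobin genes *Hba-a1* and *Hbb-bs* were listed at 0 in all 4 libraries. The neutrophil markers *Ngp*, *Camp*, *S100a8*, and *S100a9* were at 0.0509 to 33.8 TPM in the reporter-positive cells, and *Cd79a* at 0.0293 and 0.134. Other markers of these lists were abundant there, with *Ltf* at 1691 TPM in GFP-positive and 286.2 in tdTomato-positive cells, *Lcn2* at 1697 and 265.2, *Lyz2* at 2043 and 1707, and *Vpreb3* at 81.8 and 533.2. Few stromal markers were members. In the endothelial list it was 1 of 8, *Pecam1* (41.2 and 40.97 TPM), and the others were at 0.0622 (*Cdh5*) to 6.40 TPM (*Emcn*) in GFP-negative cells and at 0 (*Tie1*) to 1.79 TPM (*Cdh5*) in tdTomato-negative cells. In the pericyte list it was *Rgs5*, with 37.4 and 158.2 TPM. In the fibroblast list 3 of 8 were members, of which *Col1a2* (11.7 and 2.14 TPM) was higher in GFP-negative cells and *Dcn* (33.4 and 29.6) and *Col6a1* (10.3 and 7.63) were within 2-fold. No mast cell or osteoblast marker was a member. The part of leukocytes in these differences was not tested.

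**Figure D4:**
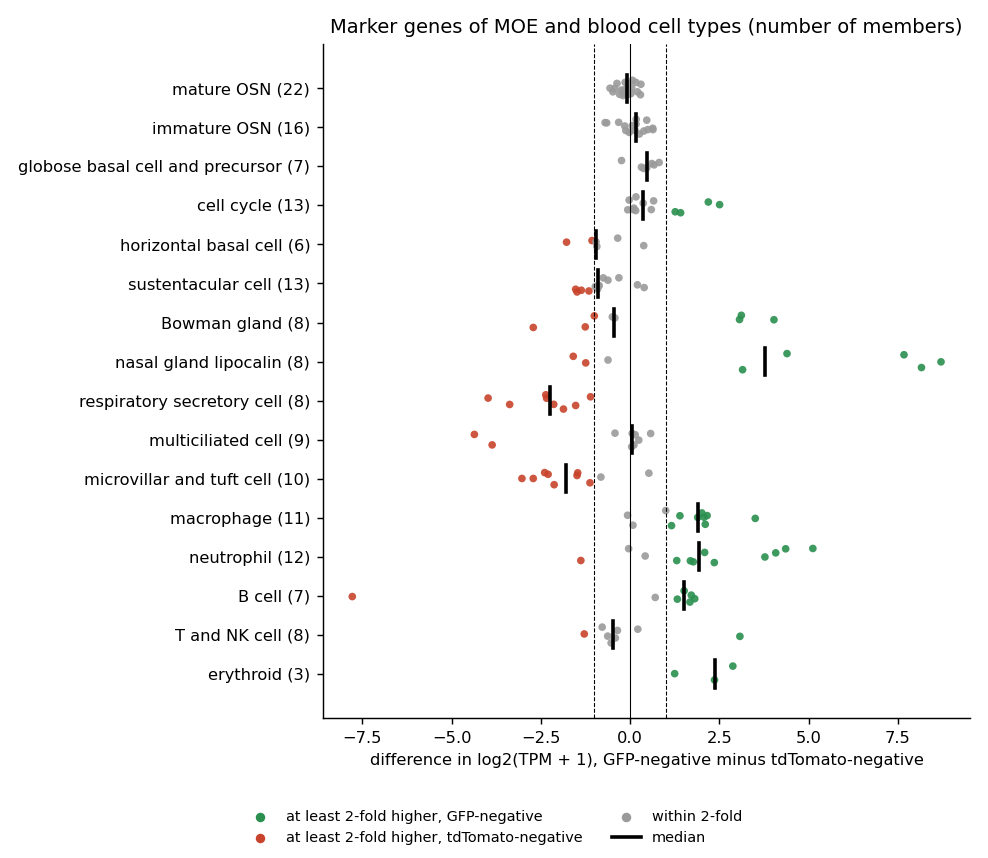
Difference in log2(TPM + 1), GFP-negative minus tdTomato-negative (x axis), of each member of 16 marker lists (rows, with the number of members), with black bars for the median and dashed lines at 2-fold. The neuronal lists lie within 2-fold, the macrophage, neutrophil, and B cell lists have medians of 1.89, 1.93, and 1.51, and the respiratory secretory and microvillar lists have medians of -2.24 and -1.81.

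Genes that respond to stimuli were also compared. In the interferon response list, 6 of 12 members were higher in GFP-negative cells and none in tdTomato-negative cells (median 1.06), with *Usp18* at 35.5 and 5.22 TPM, *Irf7* at 152.3 and 47.1, and *Oasl2* at 74.0 and 19.0. *Ifi27l2a* had 240.4 and 13.1 TPM. MHC class II genes, which antigen-presenting cells express, had a median of 0.94, with 2 of 7 members past 2-fold, against 15.3% of all members, and *Cd74* at 1535 and 921.9 TPM. Of 17 immediate early and heat shock genes, 4 were higher in tdTomato-negative cells, against 7.92% of all members, namely *Hspa1a* (34.8 and 132.7), *Hspa1b* (60.6 and 176.1), *Ier3* (55.6 and 137.8), and *Egr2* (3.75 and 15.9). *Fos* (711.5 and 676.6) and *Jun* (554.7 and 453.7) were level. Of 11 clock genes (median -0.05), 2 passed 2-fold, a share near the 15.3% of all members, namely *Arntl* (28.4 and 9.13) and *Ciart* (22.6 and 7.41). *Xist*, the RNA of the inactive X chromosome, had 36.1 TPM in GFP-negative and 101.5 in tdTomato-negative cells, and the Y-linked gene *Eif2s3y* had 139.9 and 110.8, and both were thus present in both libraries. Of 5 members of the list of non-canonical sensory neurons (median 0.31, or 1.05 at a minimum of 5 TPM), *Car2* (130.5 and 281.8) and *Gucy2d* (0.633 and 10.985) were higher in tdTomato-negative cells, *Ms4a7* (27.4 and 8.06) and *Ms4a6c* (44.9 and 21.2) were higher in GFP-negative cells, and *Pde2a* (41.1 and 32.97) was within 2-fold.

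Housekeeping families are abundant, and 3.55% of genes outside the receptor families with a mean of 100 to 200 TPM were past 2-fold. Of 80 ribosomal protein genes 78 were within 2-fold (median 0.13), as were 70 of 73 nuclear oxidative phosphorylation genes (median 0.21) and 36 of 37 proteasome genes (median 0.11). The exceptions among oxidative phosphorylation genes were *Cox8a* (682.7 and 132.3 TPM), *Cox6a1* (1106 and 450.5), and *Ndufa1* (158.9 and 67.8). Transcript length moved with the difference. Among protein-coding members outside the receptor families, those with the shortest transcripts, from 294 to 2181 bases, had a median difference of 0.10 and 19.0% past 2-fold. Those with the longest, from 4784 bases, had a median of -0.21 and 6.26% past 2-fold. Over groups of rising GC content the share past 2-fold lay between 10.3% and 12.3%. Annotated small RNA genes, with a median length of 82 bases, stood apart, as 79 of 98 members (80.6%) were past 2-fold and 66 were listed at 0 in 1 library. *Mir7666*, for example, had 179.6 TPM in GFP-negative cells and was listed at 0 in tdTomato-negative cells.

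*OR* genes differed more often than members as a whole, though less often than small RNA genes. Of 691 members, 432 (62.5%) were past 2-fold, 226 higher in GFP-negative cells and 206 in tdTomato-negative cells, while their summed TPM over all 1125 *OR* genes differed by a log2 ratio of -0.16. Of these 1125, 603 were above 0 in both libraries, 255 only in GFP-negative cells, 77 only in tdTomato-negative cells, and 190 in neither. The lists of the 100 highest *OR* genes of each library shared 41. Pearson r was 0.035 over the 691 members, 0.424 over the 603 genes above 0 in both libraries, and 0.511 over all 1125 genes. Of the 691 members, 345 reached 10 TPM in both libraries. Entry of the others through a single library raises the share past 2-fold and lowers the r over members. At a mean of 50 to 100 TPM, 44.6% of *OR* genes were past 2-fold, against 4.01% of genes outside the receptor families. The 10 highest *OR* genes held 6.06% of the *OR* total in GFP-negative cells and 9.08% in tdTomato-negative cells. *Olfr1260* had the highest value of either library, with 44.1 TPM in GFP-negative cells and 290.1 in tdTomato-negative cells. In GFP-negative cells the highest was *Olfr166*, with 130.3 and 61.5 TPM. *Olfr536* was among the 5 highest in both, with 119.1 and 175.9 TPM, and *Olfr810* had 115 and 10.3.

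Values of 0 were more frequent for tdTomato-negative cells, and the excess lay mainly in *OR* and small RNA genes. Over all members, the counts of such genes were 201 for tdTomato-negative and 95 for GFP-negative cells. Small RNA genes made up 46 and 20 of these. Protein-coding genes outside the receptor families made up a similar 26 and 23. At 10 TPM or more in GFP-negative cells and 0 in tdTomato-negative cells were 122 *OR* genes, and 44 were the reverse. In class I, the fish-like *OR* family on chromosome 7, it was 20 and 1 of 125 genes, and in class II it was 101 and 43 of 967. The median difference was 0.49 over 91 class I members and -0.19 over 585 class II members. On chromosome 10 it was 13 and 0 of 67 genes, and on chromosome 9 it was 7 and 7 of 135. The summed *OR* level was higher in GFP-negative cells on chromosome 10 (1433 and 966 TPM) and chromosome 4 (284.7 and 176.9), and lower on the other chromosomes examined, such as chromosome 2 (3633 and 4366). Among *Taar* genes, 4 of 15 were members. *Taar2* had 14.1 TPM in GFP-negative cells and was listed at 0 in tdTomato-negative cells, *Taar7a* had 15.3 and 25.8, *Taar7d* had 14.3 and 15.4, and *Taar7f* had 3.91 and 12.8, with a median difference of -0.41 that turned to 1.46 at a minimum of 5 TPM. Below the minimum, *Taar3*, *Taar4*, *Taar5*, *Taar6*, and *Taar7b* were at 4.26 to 9.17 TPM in GFP-negative cells, and in tdTomato-negative cells *Taar6* was at 0.0659 and the other 4 were listed at 0. *Taar7e* was at 4.67 and 6.55 TPM, and *Taar9* was listed at 0 in GFP-negative cells and at 0.196 TPM in tdTomato-negative cells. No vomeronasal receptor gene was a member.

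The difference between the reporter-negative libraries was set beside that between the reporter-positive libraries of the same lines, which share no library with it. Over 11143 members outside the receptor families the differences had a Pearson r of 0.090. Of the 15 leading genes of GFP-negative cells, 10 also had a higher value in GFP-positive than in tdTomato-positive cells, 7 of them by at least 2-fold, and *Apod* was at least 2-fold higher in tdTomato-positive cells. Of the 15 leading genes of tdTomato-negative cells, 6 were higher in tdTomato-positive cells, 1 of them by at least 2-fold, and 6 were at least 2-fold higher in GFP-positive cells. Over all members outside the receptor families the share with the same direction was 56.4%, and over the 289 genes past 2-fold that met the same minimum and differed between the reporter-positive libraries it was 49.8%. *Lcn3*, *Obp2a*, and *Obp2b* were higher in the GFP line in both gates, while *Obp1a*, *Lcn11*, and *Mup4* had lower values in GFP-negative than in tdTomato-negative cells and higher values in GFP-positive than in tdTomato-positive cells. *Scgb1c1* had 13348 TPM in GFP-positive and 375.7 in tdTomato-positive cells. The leukocyte genes *Prg2*, *Gzmb*, and *Ifitm6* were below 0.12 TPM in both reporter-positive libraries.

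**Figure D5:**
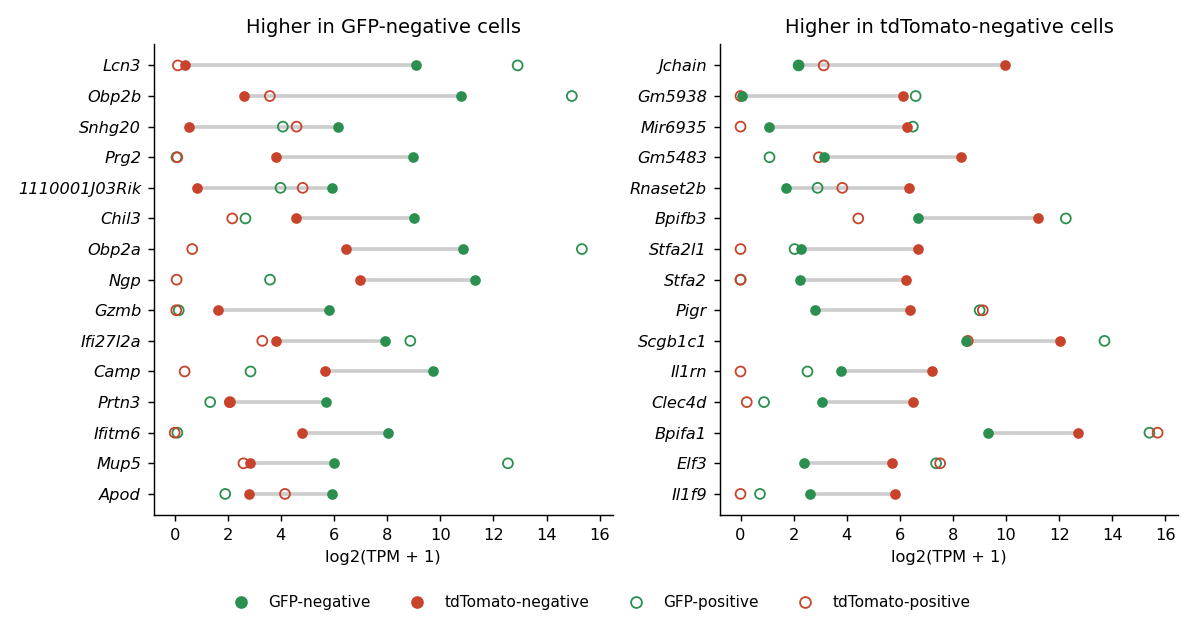
Levels as log2(TPM + 1) (x axis) of the 15 leading genes in each direction (rows) in GFP-negative (filled green), tdTomato-negative (filled red), GFP-positive (open green), and tdTomato-positive cells (open red), with gray lines between the reporter-negative values. *Lcn3*, *Obp2a*, *Obp2b*, and *Mup5* are highest in GFP-positive cells, the leukocyte genes *Prg2*, *Gzmb*, and *Ifitm6* are near 0 in both reporter-positive libraries, and *Bpifa1* is above both reporter-negative values in both.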

How the data were processed

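RNA-seq of FACS-sorted MOE cells was analysed in 4 libraries, of which the GFP-negative and tdTomato-negative libraries were compared and the reporter-positive libraries were set beside them. The authors deposited gene-level TPM values under gene symbols. The submitters' processing notes name Trimmomatic 0.36, Salmon 1.4.0, and mm10, while the methods of the study name Hisat2, Cufflinks, and featureCounts, and the gene annotation is not given in the sources used here. The labels and the methods also name different kits for RNA and libraries. Each column sums to 1000000, so depth is unknown, and no intervals or detection limits were calculated.

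The difference of a gene is that of its log2(TPM + 1) values, a scale that understates changes of low genes and depends on the pseudocount where a gene is listed at 0. A gene was called past 2-fold at a difference of 1 or more in size. Each group has 1 library, so no test was run. The arithmetic was tested on simulated data. The members and gene lists were chosen with earlier results of these data known. The genes named are the 20 highest by mean TPM, the 15 largest differences in each direction outside receptor families (at least 50 TPM in 1 library and above 0 in both), the 5 highest listed at 0 in the other library, the 5 highest *OR* genes of each library, list genes, and genes at the limit of 10 TPM. Some genes that this rule names are not reported here. Other members of lists and of the BPI-fold family were named after their values were seen. *OR* classes follow the MOR numbers in the reference gene names, with numbers up to 42 as class I. Alternatives were a pseudocount of 0.1 or 10, a minimum of 1, 5, or 50 TPM in either library, no minimum, 10 TPM in both libraries, a 4-fold limit, 2 other scalings, and subsets of gene types. Leaving out small RNA genes, and giving medians only for lists of at least 3 members, were chosen after seeing the data. Gene types, lengths, and positions are from GENCODE M21 (GRCm38), which matched 96.7% of members, and promoters are from RefSeq. Python 3.11.15, NumPy 2.4.6, pandas 2.3.3, SciPy 1.17.1, and Biopython 1.88 were used.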

Additional observations from a re-analysis of the deposited data

Results flagged for a closer look

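For 4 of the leading genes, the difference between the lines took opposite directions in the reporter-negative and the reporter-positive cells, each by at least 4-fold on the log2(TPM + 1) scale, GFP line minus tdTomato line, and the gene reached 50 TPM in a reporter-positive library. *Il1rn*, *Stfa2l1*, and *Apod* also took opposite directions past 4-fold, at lower levels in the reporter-positive cells. Each value rests on 1 library per group, and the change of direction was not tested. *Bpifb3* had -4.50 in reporter-negative and 7.82 in reporter-positive cells. *Scgb1c1* had -3.55 and 5.15. *Gm5938* had -6.05 and 6.59, with 0.0457 TPM in GFP-negative, 68.3 in tdTomato-negative, and 95.6 in GFP-positive cells, and was listed at 0 in tdTomato-positive cells. The small RNA gene *Mir6935* had -5.21 and 6.49 and was likewise listed at 0 in tdTomato-positive cells.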

How the results depend on the processing

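Of 363 values recalculated under the alternatives, 336 stayed within 1.5 times the reported value (medians within 0.58 on the log2 scale) and 27 moved further. The sign changed in 10, of which 5 were medians near 0 of the clock and the receptor enhancer lists and 5 were medians of the lipocalin, Bowman's gland, and *Taar* lists. The number of genes past 2-fold, 875 higher in GFP-negative and 937 higher in tdTomato-negative cells, was 512 and 426 with a pseudocount of 10, 1966 and 1817 with a minimum of 1 TPM or with no minimum, 202 and 212 with a minimum of 50, and 285 and 340 with a minimum of 10 TPM in both libraries. The 4-fold limit gave 370 and 304. The lipocalin median changed from 3.77 to -0.93 when 10 TPM was required in both libraries, since *Lcn3*, *Lcn4*, *Obp2b*, and *Mup5* no longer entered. With a pseudocount of 10, the respiratory secretory, macrophage, and erythroid medians were -1.33, 1.25, and 1.24. With a minimum of 50 TPM the Bowman's gland median turned from -0.46 to 1.03, and the BPI-fold median was 2.01 there and with 10 TPM in both libraries. With lower minimums more genes near 0 entered. The fibroblast median was 1.49 at 1 TPM or with none and 1.79 at 5 TPM, the *Taar* median turned from -0.41 to 2.41 at 1 TPM, 1.46 at 5 TPM, and 2.39 with none, the histone median 1.81 at 1 TPM, and that of non-canonical sensory neurons 1.05 at 5 TPM. Scaling by the median ratio over 13787 genes shifted each difference by 0.07 and gave 952 and 844 genes past 2-fold, and rescaling without the 13 highest genes by -0.01. Lists with fewer than 3 members got no median, a choice made after seeing the data. No paired analysis was possible because no group has more than 1 library. Depth, which the TPM values do not give, limits how far low genes and genes listed at 0 can be compared, and the spread between libraries of 1 group is unknown.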
